A study of Mus musculus with 6 samples.

Results

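The genes followed here across the arrays were Sfi1, Gpr146, Slx1b, Inka1, Dok1 and Nr0b2. They were picked by name for low ratios of treated over untreated RNA, so the measured ratios chose them, and their ratios are given as a description with no test. All probes annotated to these 6 genes were taken, which gave 8 of the 16281 probes on the array and 6 of the 8331 genes that had a ratio on every array. The cells were RAW 264.7, a mouse macrophage line, and part of the labels spells it RAW 264.4. Treated cells had received LPS (lipopolysaccharide, from the outer membrane of Gram-negative bacteria) at 100 ng/ml for 1 h, together with LBP, the serum LPS-binding protein that hands it to its receptor, at 100 pM. Untreated cells of the same line, cultured for 1 h, gave the RNA they were set against. The 6 arrays were dual-channel and each held both RNAs. On 3 of them Cy5 marked the treated RNA (the Cy5 arrays) and on 3 Cy3 did (the Cy3 arrays), numbered as sets 1 to 3 in each orientation. The line is 1 transformed cell line, and no label says that the sets came from separate cultures, so a p-value speaks of the variation among these arrays alone and that may be technical.

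Each value is a log2 ratio of treated over untreated RNA, so -1 stands for a level 2-fold lower in treated cells. Levels within a channel were not used here, so the depth behind a ratio is unknown, and precision is limited by how many arrays there are. The sign assumes Cy5 over Cy3 in the deposited table, since the Cy5 sample is named the test in the labels. Under that reading Tnf averaged 2.44 ± 0.19, Il1b 2.54 ± 0.16 and Egr1 5.13 ± 0.16 (SD over 3 set averages), and with Cy3 as the numerator every sign in the text would turn. The array medians lay between -0.01 and 0.02. Of the 12 macrophage markers 11 were on the array and 11 had a ratio on all 6 arrays, against 7 of 8 lymphocyte markers and 2 of 9 fibroblast and epithelial markers on the array. A ratio carries no level, so these counts say only that the probes gave a ratio. In these markers Adgre1 (0.55 ± 0.11) rose among the macrophage genes, while Cd4 (0.47 ± 0.21) and Cd79a (0.20 ± 0.06) rose among the lymphocyte genes (limma, adjusted p = 0.00149, 0.0131 and 0.0345), and the part of other cells in the results was not tested. Without set 1 neither lymphocyte call held, with Cd4 at 0.52 and Cd79a at 0.24, and Cd79a had no call without set 2 (0.20) or set 3 (0.17) either. With zeros kept as ratios Cd4 stood at 0.14, with incomplete probes included at 0.35 and on the Cy3 arrays alone at 0.30, with no call in any of these.

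The amount of an mRNA falls when its synthesis slows or its decay quickens, and it can fall no faster than decay removes existing molecules. A long-lived mRNA therefore changes little within an hour even if its gene is silent, whereas a short-lived one is soon lost. In macrophages, LPS acts through the receptor TLR4 and switches on many genes within minutes, while transcripts of other genes decline. The 6 genes have separate textbook roles: Sfi1 in the centrosome, Slx1b in DNA repair, Inka1 in kinase inhibition, Dok1 in signal damping, Gpr146 as a surface receptor and Nr0b2 as a repressor of transcription.

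Dok1 is read here from the probe annotated to it alone. Across the 6 genes and 6 arrays the 36 ratios ran between -1.65 and -0.78, and 24 of them were at or below -1. All 6 genes were at or below -0.75 on all 6 arrays, as were 10 of the 8331 genes tested (0.12%). Their ratios were below 0 on every array, as in 9.11% of genes. Another probe, annotated to Dok1 together with M1ap and Loxl3, ran between -0.29 and 0.03, so neither statement holds for it. The median of the 6 mean ratios was -1.17, against -0.01 over all genes. Of the 6, 4 had a mean at or below -1 (background 0.084%, or 7 genes). These counts follow from the choice of the genes and nothing is read from them. Among all genes, 517 were lower and 580 higher in treated RNA by limma at an adjusted p under 0.05 (6.21% and 6.96%).

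**Figure D1:**
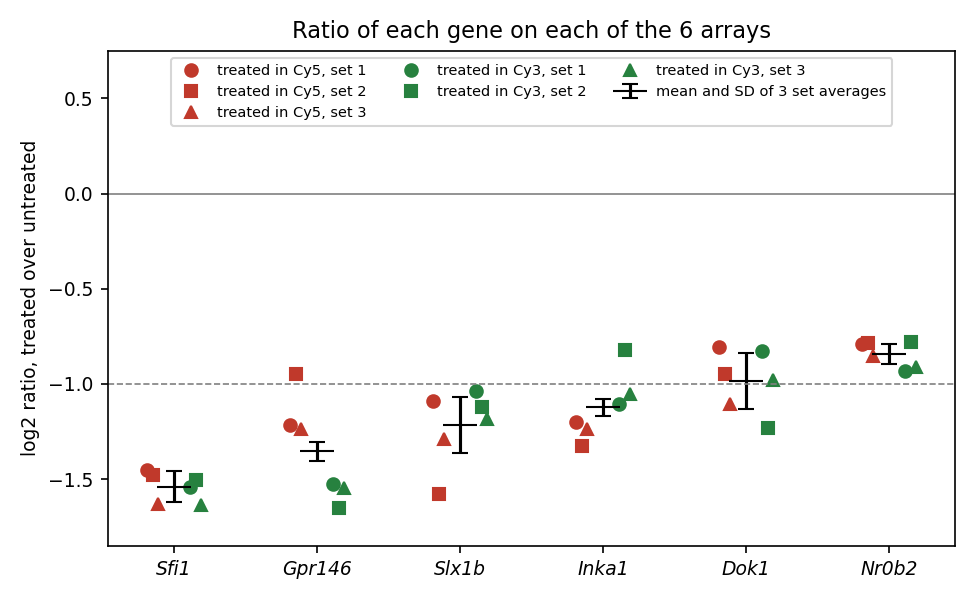
The vertical axis gives the log2 ratio of treated over untreated RNA and the horizontal axis the 6 genes. Each point is 1 array, coloured by the dye that carried treated RNA and shaped by set, and the black bar is the mean with the SD of 3 set averages. Sfi1 lies between -1.64 and -1.45 and Nr0b2 between -0.93 and -0.78, while Gpr146 splits by dye.

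Sfi1 encodes a centrin-binding protein of the centrosome. In yeast its relative is needed to duplicate the spindle pole body. Its ratios were -1.45, -1.48 and -1.63 on the Cy5 arrays and -1.54, -1.50 and -1.64 on the Cy3 arrays, for sets 1, 2 and 3. All arrays were close to each other and the dye orientations overlapped. The mean was -1.54 ± 0.08 (SD, n = 3 sets), a level 2.91-fold lower in treated cells, or 34.4% of that in untreated cells. It was the lowest mean of all 8331 genes, and on single arrays Sfi1 ranked between 1 and 13 from the bottom. Since the mean of Sfi1 was the lowest of all, no other gene could reach it in the mean, and the centrosome genes are set against all genes instead. Of 15 measured centrins and centrosome genes, 1 rose and 0 fell (limma, 6.67% called against 13.2% of all genes), and their median ratio was 0.01, against -0.01 over all genes. The call was that of Plk4, a kinase of centriole duplication, at 0.20 ± 0.03 (limma, adjusted p = 0.0248), and it was lost without any one of the sets, at 0.22, 0.20 and 0.19 without sets 1, 2 and 3. The centrin genes, whose proteins bind SFI1, stood at 0.01 ± 0.05 for Cetn2 and -0.07 ± 0.14 for Cetn3.

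Gpr146 encodes a G-protein-coupled receptor that in mouse liver has been linked to the control of blood cholesterol. Its ratios were -1.22, -0.95 and -1.24 on the Cy5 arrays and -1.52, -1.65 and -1.55 on the Cy3 arrays. Every Cy3 array was lower than every Cy5 array. The mean was -1.35 ± 0.05 (SD, n = 3 sets), a level 2.56-fold lower in treated cells, or 39.1% of the untreated level. This small SD is that of averages over both dyes, and the SD over the 6 single arrays was 0.27. RefSeq (GRCm38.p6) lists 3 starts for Gpr146, and the 250 bases before a pair of them are shown because they differ most in base composition, with motif matches in capitals.
Gpr146 start 1, chr5:139377447-139377696, plus strand: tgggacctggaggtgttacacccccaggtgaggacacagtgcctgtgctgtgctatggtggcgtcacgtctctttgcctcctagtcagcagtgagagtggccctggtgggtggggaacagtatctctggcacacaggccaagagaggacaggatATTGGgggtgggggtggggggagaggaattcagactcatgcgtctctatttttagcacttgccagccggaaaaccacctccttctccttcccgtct
Gpr146 start 2, chr5:139380389-139380638, plus strand: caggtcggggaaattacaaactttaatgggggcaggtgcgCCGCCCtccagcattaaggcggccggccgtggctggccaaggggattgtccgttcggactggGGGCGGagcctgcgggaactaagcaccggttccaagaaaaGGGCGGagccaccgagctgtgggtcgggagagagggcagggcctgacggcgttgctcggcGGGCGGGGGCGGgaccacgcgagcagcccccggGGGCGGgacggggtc
The window of start 2 was 70.0% G and C and held 25 CpG pairs, whereas that of start 1 was 57.6% G and C with 5 CpG pairs. The capitals mark a CCAAT box read on the opposite strand in start 1. In start 2 they mark 6 GC boxes, a pair of which run into 1 EGR motif. The arrays do not tell which start was used. Among the 19 other measured genes with a numbered Gpr symbol, grouped by symbol alone, 1 rose and 2 fell (15.8% called against 13.2% of all genes), with a median ratio of 0.01. Gpr84, a receptor for medium-chain fatty acids, rose by 2.35 ± 0.09 and Gpr65, a proton-sensing receptor, fell by 0.45 ± 0.05 (limma, adjusted p = 4.45e-06 and 0.00137). Gpr180 fell by 0.19 ± 0.07 (limma, adjusted p = 0.0432) and had no call without set 1 (-0.17) or set 3 (-0.18).

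Slx1b encodes the catalytic subunit of a nuclease that, with its partner SLX4, cuts branched DNA. Its ratios were -1.09, -1.58 and -1.29 on the Cy5 arrays and -1.04, -1.12 and -1.18 on the Cy3 arrays. The Cy5 array of set 2 was the lowest, and the orientations overlapped. The mean was -1.22 ± 0.14 (SD, n = 3 sets), a level 2.32-fold lower in treated cells, or 43.0% of the untreated level. The window before its listed start is shown because it holds the one PU.1 motif found, PU.1 being a transcription factor of macrophages.
Slx1b, chr7:126695784-126696033, minus strand: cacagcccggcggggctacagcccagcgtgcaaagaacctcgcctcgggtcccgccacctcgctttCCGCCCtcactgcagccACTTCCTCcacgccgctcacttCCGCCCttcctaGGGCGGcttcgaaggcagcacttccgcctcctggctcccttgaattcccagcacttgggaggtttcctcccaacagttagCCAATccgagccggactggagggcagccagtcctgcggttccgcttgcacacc
The capitals mark 3 GC boxes, the PU.1 motif on the opposite strand and a CCAAT box. In the list of structure-selective nucleases and junction repair genes, 0 of 16 measured genes rose and 1 fell (6.25% called against 13.2% of all genes), with a median of -0.02. Exo1, an exonuclease of mismatch repair, fell by 0.23 ± 0.09 (limma, adjusted p = 0.034), and was not called without set 1 (-0.18) or set 2 (-0.22). Ercc1 and Ercc4, which encode the subunits of another nuclease that works with SLX4, stood at 0.06 ± 0.13 and -0.02 ± 0.07.

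Inka1 encodes an inhibitor of the kinase PAK4, which acts on the actin skeleton downstream of the GTPase CDC42. Its ratios were -1.20, -1.33 and -1.24 on the Cy5 arrays and -1.11, -0.82 and -1.05 on the Cy3 arrays. Here the Cy5 arrays were all lower than the Cy3 arrays, the opposite order to Gpr146. The mean was -1.12 ± 0.04 (SD, n = 3 sets), a level 2.18-fold lower in treated cells, or 45.9% of the untreated level, with an SD of 0.18 over the 6 single arrays. Its window is shown because, like start 2 of Gpr146, it joins a GC box to an EGR motif, the recognition letters of the early LPS-induced factor EGR1.
Inka1, chr9:107985917-107986166, minus strand: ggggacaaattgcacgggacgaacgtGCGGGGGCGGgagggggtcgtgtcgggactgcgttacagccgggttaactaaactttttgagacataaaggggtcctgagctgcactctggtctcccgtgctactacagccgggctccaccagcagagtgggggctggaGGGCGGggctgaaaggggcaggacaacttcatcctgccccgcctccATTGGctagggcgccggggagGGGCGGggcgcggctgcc
The capitals mark the EGR motif with a GC box that overlaps it, 2 further GC boxes and a CCAAT box on the opposite strand. Among 15 measured PAK kinases and Rac and Cdc42 signalling genes, 2 rose and 1 fell (20.0% called against 13.2% of all genes), with a median of -0.03. Pak4, whose kinase INKA1 inhibits, rose by 0.34 ± 0.03 (limma, adjusted p = 0.0037). Cdc42ep4, a CDC42 effector gene, rose by 1.03 ± 0.11 (limma, adjusted p = 0.000125), and its relative Cdc42ep3 fell by 0.36 ± 0.09 (limma, adjusted p = 0.00602) but had no call without set 1 (-0.31), on the Cy3 arrays alone (-0.20, against -0.53 on the Cy5 arrays) or with zeros kept as ratios. Pak4 lay between 0.25 and 0.40 on the 6 arrays. The negative sign of Inka1 follows from its choice, and a link between these genes was not tested.

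Dok1 encodes an adaptor protein that recruits RasGAP and damps Ras and ERK signalling, and in mouse macrophages it has been described as a brake on TLR4 signalling. The probe annotated to Dok1 alone gave -0.81, -0.95 and -1.11 on the Cy5 arrays and -0.83, -1.23 and -0.98 on the Cy3 arrays. The orientations overlapped and the arrays of set 1 were the highest in both. The mean was -0.98 ± 0.15 (SD, n = 3 sets), a level 1.98-fold lower in treated cells, or 50.6% of the untreated level. A further 2 probes carry the combined annotation of M1ap, Loxl3 and Dok1, which lie next to each other on the chromosome, and both were made to the same database sequence. One of them gave -0.80, -0.94 and -1.13 on the Cy5 arrays and -0.83, -1.20 and -1.08 on the Cy3 arrays. It followed the Dok1 probe array by array, with a root mean square difference of 0.04 and a largest difference of 0.10. The other gave -0.07, -0.02 and 0.03 on the Cy5 arrays and -0.16, -0.28 and -0.29 on the Cy3 arrays, which was at least 0.66 above the Dok1 probe on every array. Their means were -0.999 ± 0.16 and -0.13 ± 0.02, so they differed by 0.87. The probe of Loxl3 alone averaged -0.10 ± 0.07. Averaged over all 3 probes annotated to it, Dok1 would stand at -0.70. Among 276 sequences with 2 complete probes the median difference between probe means was 0.07, and 4 of them, this one included, differed by 0.87 or more. Of the 10 pairs with a probe mean beyond 0.8 in either direction, 3, this one included, differed by 0.87 or more, and the median difference was 0.21. Which transcript each of the 2 combined probes reports could not be told from the ratios.

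**Figure D2:**
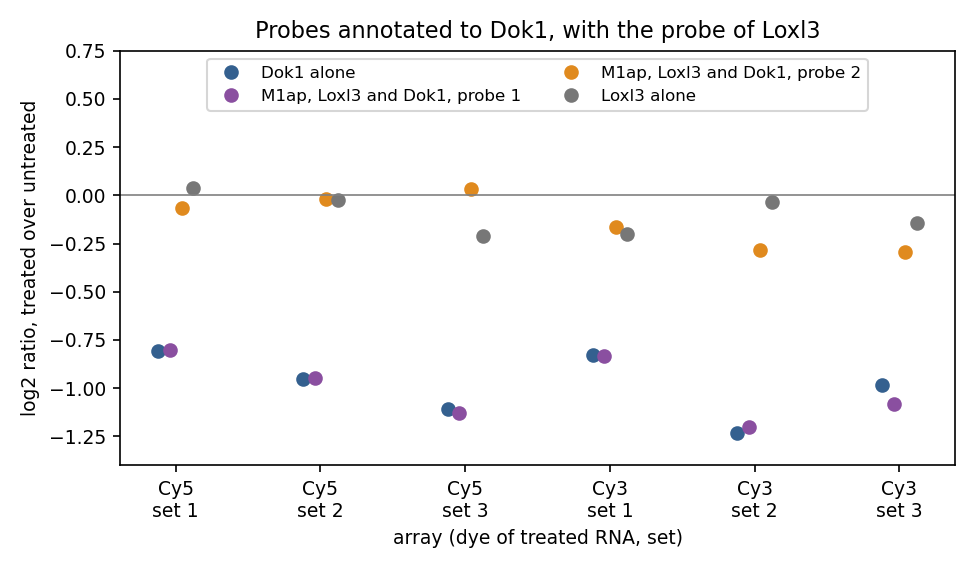
The vertical axis gives the log2 ratio of treated over untreated RNA and the horizontal axis the 6 arrays by dye of the treated RNA and set. Points are the probe of Dok1 alone, the 2 probes annotated to M1ap, Loxl3 and Dok1, and the probe of Loxl3 alone. The Dok1 probe and one combined probe run together between -1.23 and -0.80, while the other combined probe and Loxl3 stay between -0.29 and 0.04.

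Of 27 measured genes of the DOK family, RasGAP, SHIP1 and Src-family signalling, 3 rose and 2 fell (18.5% called against 13.2% of all genes), with a median of 0.03. The relatives of Dok1 stood at 0.10 ± 0.07 for Dok2, 0.03 ± 0.27 for Dok3 and -0.19 ± 0.12 for Dok4, none of them called. Nf1, a RasGAP gene, rose by 0.37 ± 0.12 (limma, adjusted p = 0.00897) and of the 5 calls it alone held without each of the sets in turn, but it had no call on the Cy3 arrays alone (0.27, adjusted p = 0.0958). With zeros kept as ratios 0 of the 27 genes were called, and Nf1 had an adjusted p of 0.076 by limma. The adaptor genes Crk (0.32 ± 0.17) and Crkl (0.16 ± 0.01) rose, and the kinase gene Fes (-0.26 ± 0.09) and the Ras activator gene Sos2 (-0.20 ± 0.07) fell, Crkl being named after its value was seen (limma, adjusted p = 0.0342, 0.0464, 0.0224 and 0.0367). Crkl averaged 0.31 on the Cy5 arrays and 0.02 on the Cy3 arrays, so its small SD is that of averages over both dyes. On the Cy3 arrays Sos2 averaged -0.11, and on the Cy5 arrays Fes averaged -0.17, each with no call there. Without set 1 the 4 stood at 0.38, 0.17, -0.23 and -0.24 with no call. Without set 2, Crk (0.22), Crkl (0.16) and Sos2 (-0.21) had no call. Without set 3, Crk (0.35), Crkl (0.16), Fes (-0.23) and Sos2 (-0.17) had none.

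Nr0b2 encodes SHP, an atypical nuclear receptor that lacks a DNA-binding domain and represses other transcription factors. It is known for the feedback control of bile acid synthesis in liver, and in mouse macrophages it has been described as a negative regulator of TLR signalling. Its ratios were -0.79, -0.79 and -0.85 on the Cy5 arrays and -0.93, -0.78 and -0.91 on the Cy3 arrays. The arrays lay closer together than those of the other 5 genes, and the orientations overlapped. The mean was -0.84 ± 0.05 (SD, n = 3 sets), a level 1.79-fold lower in treated cells, or 55.7% of the untreated level, and the SD over the 6 single arrays was 0.07. Its window is shown because it is the one among the 6 with a TATA motif.
Nr0b2, chr4:133553126-133553375, plus strand: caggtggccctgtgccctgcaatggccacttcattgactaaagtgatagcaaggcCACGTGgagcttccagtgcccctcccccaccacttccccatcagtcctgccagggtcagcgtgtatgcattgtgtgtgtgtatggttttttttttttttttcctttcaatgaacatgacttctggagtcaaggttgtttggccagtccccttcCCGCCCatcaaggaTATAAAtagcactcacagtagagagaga
The capitals mark an E-box, a GC box on the opposite strand and the TATA motif close to the start. Among 24 measured nuclear receptors and bile acid genes, 1 rose and 2 fell (12.5% called against 13.2% of all genes), with a median of -0.01. The orphan receptor gene Esrrg rose by 0.47 ± 0.06 (limma, adjusted p = 0.00143). Its relative Esrra (-0.20 ± 0.06) and Cyp27a1 (-0.25 ± 0.05), an enzyme gene of bile acid synthesis, fell (limma, adjusted p = 0.0328 and 0.015), but Esrra had no call without set 1 (-0.17) or set 3 (-0.20), nor had Cyp27a1 without set 1 (-0.26) or set 3 (-0.21). Nr1h3, which encodes the oxysterol receptor LXR alpha, stood at 0.01 ± 0.04, and its partner Rxra averaged -0.02 ± 0.07 over set averages while its single arrays ran between -0.74 and 0.85.

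In order of the mean ratio the 6 genes ran Sfi1, Gpr146, Slx1b, Inka1, Dok1 and Nr0b2. Each neighbouring pair in this order had overlapping ranges over the 6 arrays. Array by array, the gene of lower mean in such a pair was the lower on 4 or 5 of the 6 arrays. Of the 15 pairs, 5 did not overlap. Sfi1 lay below Inka1, Dok1 and Nr0b2 on all 6 arrays, and Gpr146 and Slx1b lay below Nr0b2 on all 6. Inka1 was also below Nr0b2 on each of the 6 arrays, although their ranges overlapped. Sfi1 had the lowest ratio of the 6 on 4 arrays, with Gpr146 and Slx1b lowest on 1 each, and Nr0b2 had the highest on 5 arrays and Dok1 on 1.

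The 6 genes were not the 6 lowest of the table. From the bottom they ranked 1, 3, 4, 5, 8 and 14. Ahead of Nr0b2 stood Id2, an inhibitor of helix-loop-helix factors (-1.39 ± 0.10), the noncoding RNA gene Pvt1 (-1.07 ± 0.08), the Polycomb gene Cbx8 (-1.03 ± 0.12), Agfg2 (-0.95 ± 0.24), Tsc22d3, a glucocorticoid-induced gene (-0.91 ± 0.16), Osgin1 (-0.90 ± 0.31), the glycolysis regulator gene Pfkfb3 (-0.87 ± 0.05) and the demethylase gene Alkbh4 (-0.87 ± 0.09). Just behind it stood Hivep2 (-0.84 ± 0.16), Wdr5b (-0.83 ± 0.09) and Zbtb1 (-0.82 ± 0.14). The step between Nr0b2 and Hivep2 was smaller than the spread of either, so the lower end of the group has no natural edge.

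**Figure D3:**
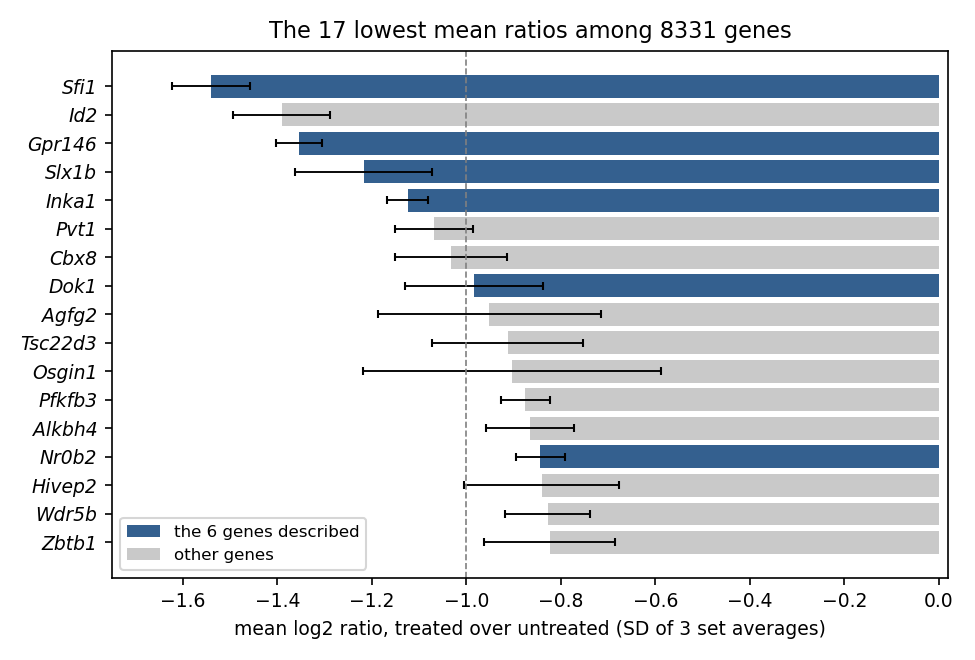
The horizontal axis gives the mean log2 ratio of treated over untreated RNA, and the bars, starting at 0, are the 17 genes of lowest mean, with the SD of 3 set averages. Blue bars are the 6 genes described and grey bars the others. The dashed line at -1 has 7 genes beyond it, 4 of them blue.

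Likeness was measured as the root mean square difference of log2 ratios over the 6 arrays, among genes with all ratios. The ratios were not centred, so the measure depends on the mean ratio, by which the 6 genes were chosen, as well as on pattern. Few genes lie this low, with 7 of the 8331 at a mean of -1 or below, which limits how close a match can be. Nr0b2 had the closest match, Pfkfb3 at 0.06, followed by the RNA-editing enzyme gene Apobec1 at 0.08 and the ion channel gene Pacc1 at 0.12. Inka1 was closest to Pvt1 at 0.10, then to Cbx8 (0.20) and Pfkfb3 (0.28). Dok1 was closest to Alkbh4 (0.16), Cbx8 (0.18) and Agfg2 (0.19), and Slx1b to Pvt1 (0.22), Id2 (0.28) and Cbx8 (0.28). Sfi1 was nearest to Id2 at 0.19, with Cbx8 and Pvt1 far behind at 0.51 and 0.52. Gpr146 had no close match, at 0.30 from Id2, 0.40 from Cbx8 and 0.48 from Tsc22d3.

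The dye orientation was not used in choosing the genes, since their means weigh both orientations equally. The mean of the Cy5 arrays minus that of the Cy3 arrays was 0.44 for Gpr146, with means of -1.13 and -1.58. It was -0.26 for Inka1 (-1.25 and -0.99), -0.21 for Slx1b (-1.32 and -1.11), 0.04 for Sfi1 (-1.52 and -1.56), 0.06 for Dok1 (-0.96 and -1.01) and 0.07 for Nr0b2 (-0.81 and -0.88). The median absolute difference was 0.14 over the 6 genes, against 0.15 over all genes. The orientations did not overlap for 2 of the 6, Gpr146 and Inka1, as for 35.7% of all genes. The dye effect was tested on set averages of the ratios before turning, and 0 of the 6 passed (limma, background 0.06%). For Gpr146 the dye effect was 0.22 ± 0.11 (limma, adjusted p = 0.129), and for Inka1 it was -0.13 ± 0.11 (adjusted p = 0.205). At an unadjusted p under 0.05, 1 of the 6 passed, against 27.8% of all genes. With all 6 arrays taken singly the adjusted p of Gpr146 was 0.0565. In both orientations all 6 genes were lower in treated RNA.

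**Figure D4:**
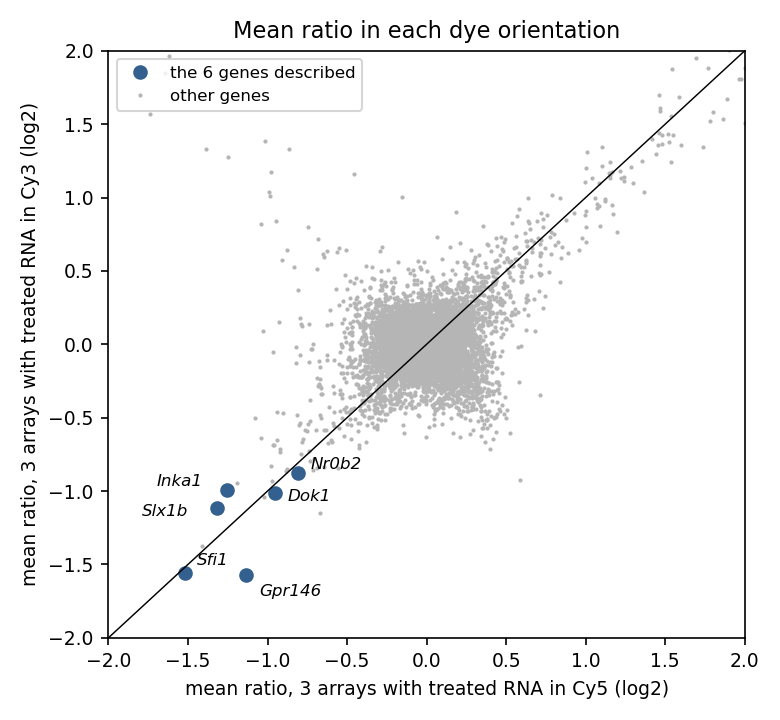
The horizontal axis gives the mean log2 ratio over the 3 Cy5 arrays and the vertical axis that over the 3 Cy3 arrays. Grey points are the other genes within the axes, blue points the 6 genes described, and the line marks equal means. Among the blue points Gpr146 lies farthest from the line, at -1.13 and -1.58.

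Neighbouring genes were read from RefSeq's gene order (GRCm38.p6), used only for names and order, and were looked up after the ratios had been seen. The nearest measured protein-coding genes on either side gave 11 neighbours. Their mean ratios ran between -0.38 and 0.11 with a median of -0.03, and 1 of the 11 was called (9.09% against 13.2%). Gpr146 lies within the span of 3110082I17Rik, which stood at -0.03 ± 0.08. Slx1b overlaps Sult1a1 (-0.15 ± 0.12) and Sfi1 overlaps Eif4enif1 (0.11 ± 0.27), while Uba7 beside Inka1 stood at -0.02 ± 0.10 and Nudc beside Nr0b2 at -0.02 ± 0.03. The call was Sema4f, beyond the unmeasured M1ap from Dok1, at -0.38 ± 0.19 (limma, adjusted p = 0.0231), whose arrays ran between -1.23 and 0.10. Its mean was -0.72 on the Cy5 arrays and -0.03 on the Cy3 arrays, with no call in either orientation alone. It also had no call without set 1 (-0.38, adjusted p = 0.12) or with all 6 arrays taken singly (limma, adjusted p = 0.062).

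**Figure D5:**
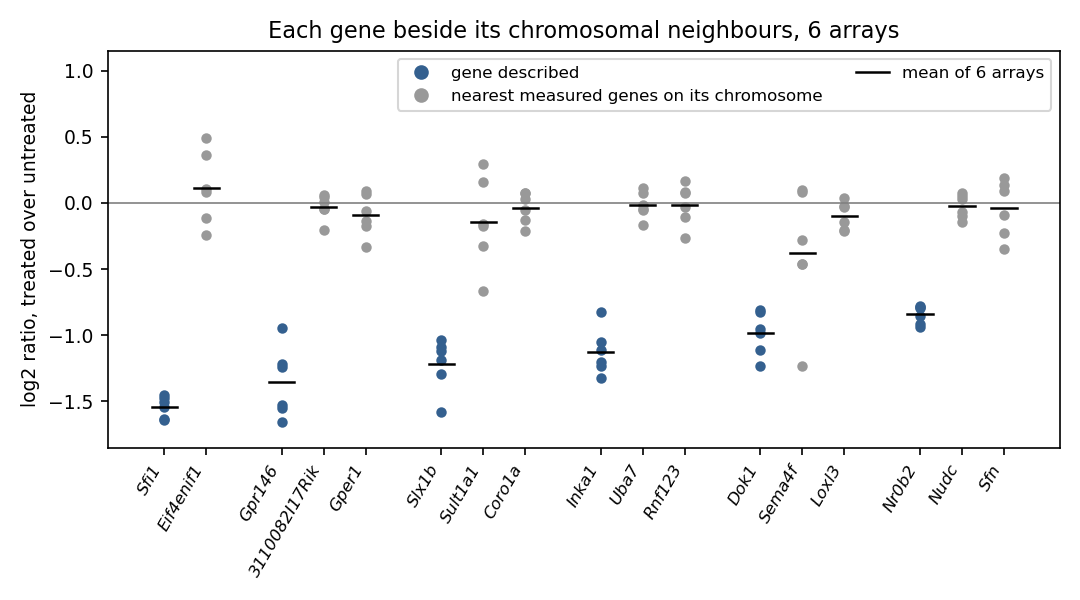
The vertical axis gives the log2 ratio of treated over untreated RNA on each of the 6 arrays. Blue points are the 6 genes, each followed by its nearest measured neighbours on the chromosome in grey, with a bar at the mean. The means of the grey genes run between -0.38 and 0.11, and the blue genes lie lower because they were chosen for low ratios.

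The ratios can be turned into a limit on mRNA lifetime by arithmetic. The limit assumes that an mRNA decays with a constant rate during the hour and that its synthesis is never negative. It also takes the level in untreated cells after 1 h as the starting level, which was not measured. The half-life in treated cells is then at most 60 min divided by the drop in log2 units. Had the untreated level risen during the hour, the true limit would be longer. The limit is reached if synthesis stopped at the moment of treatment, and any remaining synthesis or delay makes the half-life shorter. For the means it came to 38.9 min for Sfi1, 44.3 min for Gpr146, 49.3 min for Slx1b, 53.4 min for Inka1, 61.0 min for Dok1 and 71.2 min for Nr0b2. Taken from the set average with the smallest drop it was 40.3, 46.2, 56.5, 55.9, 73.4 and 76.6 min in the same order of genes. The single array with the smallest drop gave 41.3, 63.4, 57.9, 73.0, 74.3 and 76.8 min in that order. The values for Dok1 rest on the probe annotated to it alone. Its mean of -0.70 over all 3 annotated probes would give a longer limit. These are limits from 1 time point and no decay rate was measured. They take the centring of the arrays as it was deposited, and they do not tell slower synthesis from faster decay.

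The machinery and control of mRNA decay were looked at beside these limits. Of 32 measured genes of deadenylation, decay and its control, 5 rose and 0 fell (15.6% called against 13.2% of all genes, of which 6.96% rose), with a median of 0.04. The list does not separate genes that speed decay from genes that slow it. Btg2 (3.04 ± 0.20), which recruits a deadenylase, rose, as did Zfp36 (2.14 ± 0.13) and Zfp36l1 (0.60 ± 0.10), whose proteins bind AU-rich elements (limma, adjusted p = 7e-06, 1.04e-05 and 0.000965). The other 2 calls were the RNA-binding protein genes Pum2 (0.24 ± 0.12) and Elavl1 (0.18 ± 0.04), Elavl1 being named after its value was seen (limma, adjusted p = 0.0441 and 0.0358). Pum2 had no call without set 1 (0.29), set 2 (0.26) or set 3 (0.17), nor had Elavl1 (0.19, 0.20 and 0.16). Pum2 averaged 0.10 on the Cy5 arrays and Elavl1 0.08 on the Cy3 arrays, with no call there. Zfp36l2, of the same family as Zfp36 and Zfp36l1, stood at -0.37 ± 0.44 with no call, its arrays running between -1.07 and 0.12. The exonuclease gene Xrn1 stood at -0.10 ± 0.15 and the decapping gene Dcp2 at 0.09 ± 0.06. Whether these proteins act on the 6 mRNAs was not tested.

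Promoter windows were available for 4 of the 6 genes, with 6 starts in all. Motifs were searched on both strands in the 250 bases before each start. The GC box, a binding site of SP1-like factors spelled GGGCGG, was found in 4 of the 6 windows, against 32.7% of 32851 windows of the same length. The CCAAT box, a common promoter element searched by those letters, was found in 3 windows, against 33.8%. The EGR motif, spelled GCGNGGGCG and named after the early growth response factors, was found in 2 windows (4.7% of all windows), and each of its matches overlaps a GC box. The box at which the basal machinery assembles, searched as TATAAA, was found in 1 window (12.4% of all). The E-box, which basic helix-loop-helix factors recognise, was searched as CACGTG and found in 1 window (6.02%), and the motif of the macrophage factor PU.1, spelled GAGGAAGT, likewise in 1 (2.44%). No window held the AP-1 motif of the Fos and Jun factors, searched as TGANTCA and present in 6.75% of all windows. None held the cAMP response element, searched in its full form TGACGTCA and present in 1.55%, or the half-site of nuclear receptors, spelled AGGTCA and present in 14%. The NF-kappaB consensus, present in 7.25% of all windows, was not found in these 6 either. Content of G and C ran between 50.0% in Nr0b2 and 70.0% in start 2 of Gpr146, with a median of 52.4% over all windows. The matches describe letters in these windows and were not shown to be bound.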

How the data were processed

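Per probe and array, the authors deposited 1 log2 ratio of the 2 channels. The base was read from the values: multiplied by log10 of 2, 99.9513% to 99.9925% of an array's non-zero values become numbers of 6 digits, and 0% do so for base 10 or the natural base. Scanner, background correction and centring are not given in the sources used here. Values of the Cy3 arrays were turned by a factor of -1, and an exact 0 (8.99% to 23.9% of an array) was taken as no ratio. Probes with 1 symbol and all 6 ratios (9968) were averaged to 8331 genes. Symbols came from the platform annotation, and 13694 probes matched RefSeq by gene ID. Both arrays of a set number were averaged to 1 replicate and tested against 0 with limma 3.58.1 (lmFit, eBayes, two-sided, Benjamini-Hochberg over all genes, calls under 0.05), which was tested on simulated data. After removal of orientation means, same-numbered arrays had correlations of -0.0077, -0.281 and -0.0943. These do not show whether the numbers mark pairs, since a dye effect shared by 2 arrays enters with opposite signs after turning. Both arrays of set 2 had a larger share of exact 0 (17.7% and 23.9%) than any other array (at most 12.1%). The SD over 3 sets takes the numbers as pairs, which was not established.

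The 6 genes, the lists and the naming rule were chosen with earlier results of these data known. The rule names the 6 genes, the 3 genes most like each, genes ranked within or just above their range, up to 4 called genes of each list, and Tnf, Il1b and Egr1.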

Additional observations from a re-analysis of the deposited data

How the results depend on the processing

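The mean ratios of the 6 genes were negative under all of the alternatives run, and 50 of 61 such values lay within 1 SD of the value reported. The sign follows from the choice of the genes. Keeping zeros, including incomplete probes or dropping the replicate block cannot change these means, and the shift to median 0 hardly moved them. The count of 50 therefore says little about stability. Quantile normalization moved all 6 further from 0, to -1.78 (Sfi1), -1.64 (Gpr146), -1.42 (Slx1b), -1.29 (Inka1), -1.25 (Dok1) and -1.06 (Nr0b2), which would put the half-life limits between 33.6 and 56.8 min, and the cause was not tested. The number of genes at or below -1 was 14 under quantile normalization and 21 on the Cy5 arrays alone, against 7 as reported. Averaging all probes annotated to Dok1, an alternative chosen after seeing the data, gave -0.70.

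The number of genes called between treated and untreated RNA was 1097. It was 522 with zeros kept as ratios, 655 with incomplete probes included and 649 on the Cy3 arrays alone, and the cause was not tested. With 1 set left out it ran between 499 (without set 1) and 832. Without the replicate block, all 6 arrays taken singly, it was 1439. The dye effect gave 5 calls by limma, and 277 without the replicate block, where more residual degrees of freedom remain. With zeros kept as ratios it gave 0 (2418 genes at an unadjusted p under 0.05). With 1 set left out it gave between 0 (without set 1 or 2, with 873 and 2515 at an unadjusted p under 0.05) and 24.

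Of the 25 genes of the lists and neighbours named with a call, 9 were called under all 10 alternatives, namely Adgre1, Btg2, Cdc42ep4, Esrrg, Gpr65, Gpr84, Pak4, Zfp36 and Zfp36l1. The number called was 10 with zeros kept as ratios, 11 with incomplete probes included, 18 under quantile normalization, 16 on the Cy5 arrays alone and 12 on the Cy3 arrays alone, 24 without the replicate block and 25 with arrays shifted to median 0. Without sets 1, 2 and 3 it was 10, 17 and 14.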
